A study of Mus musculus with 19 samples.

Results

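The genes of 9 antioxidant enzymes were followed in single mouse embryos: the glutathione peroxidases Gpx1, Gpx3 and Gpx4, the superoxide dismutases Sod1 and Sod2, catalase (Cat), the peroxiredoxins Prdx1 and Prdx2, and thioredoxin (Txn1). They were taken by gene symbol, 9 of the 39262 genes with any count, and all 9 passed the filter on low values that kept 18410 genes for testing. The set was chosen with the measurements in view, because Gpx3 differed strongly between the crosses in non-KO morulae. That difference is therefore given as a description without a test. Gpx3 received no test in any comparison with those 5 embryos in a compared group. They still entered the fit of all embryos, so the Gpx3 tests elsewhere are not independent of this choice.

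The study measured polyadenylated RNA in 19 embryos, each its own library. Oocytes and sperm came from mice heterozygous for Alyref (Alyref+/-), whose product is an adaptor for mRNA export, or for Gabpb1 (Gabpb1+/-), whose product is a subunit of the transcription factor GABP, and WT B6D2F1 mice were the control. The embryos were fertilised in vitro, kept in KSOM medium at 37 degrees C under 5% CO2 and taken 96 hours after insemination as morulae or blastocysts. The 7 groups were Alyref KO morulae (Alyref-/-, n = 2), non-KO morulae of the Alyref cross (n = 3), morulae labelled Gabpb1 KO (Gabpb1-/-, n = 3), non-KO morulae of the Gabpb1 cross (n = 2), and blastocysts of the Alyref cross (non-KO), of the Gabpb1 cross (non-KO) and of WT mice (n = 3 each). KO embryos were recognised by the submitters from missing reads over the deleted region in the same libraries, and a non-KO embryo may be heterozygous or WT. The crosses had different parents, and how many fertilisations each had is not known here. Cross and any batch that goes with it therefore cannot be told apart, and the p-values measure the spread between embryos. In whole embryos, fewer cells of a type and less RNA per cell cannot be told apart.

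Libraries held 7.49 to 31.5 M gene counts (megacounts, median 13.6), and ERCC spike-in RNA took 0.501% to 1.95% of counts. Alyref was at 47.8 and 58.5 CPM (counts scaled to the size of the library) in the Alyref KO morulae and at 161 to 291 CPM in non-KO morulae of the same cross (log2 fold change -2.05). The KO label was itself drawn from missing reads in these libraries, so this difference is a description and no independent check of the label. Gabpb1 went against its label: it was at 78.2, 259 and 150 CPM in the morulae labelled Gabpb1 KO and at 93.8 and 83.3 CPM in the non-KO morulae (log2 fold change 0.88, adjusted p 0.243). Counts per gene include the exons outside the deletion. The 14 trophectoderm markers summed to 6435 to 9840 CPM in the 9 blastocysts and to 443 to 6160 CPM in the 10 morulae, without overlap. The lowest sum, 443 CPM, was in the second morula labelled Gabpb1 KO, whose neighbours had 4028 and 1774 CPM.

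These enzymes form a relay. Superoxide dismutases turn superoxide into hydrogen peroxide, SOD1 in the cytosol and SOD2 in the mitochondrial matrix. Catalase, glutathione peroxidases and peroxiredoxins then reduce the peroxide, the glutathione peroxidases with electrons from glutathione and the peroxiredoxins with electrons from thioredoxin. GPX1 is the main cytosolic glutathione peroxidase, GPX4 reduces lipid peroxides in membranes and is needed for embryonic development, and GPX3 is a secreted form best known from blood plasma. Preimplantation embryos in culture are sensitive to peroxide, and these enzymes are part of their defence.

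The 3 glutathione peroxidases carry selenocysteine, the selenium analogue of cysteine, as the catalytic residue. It is encoded by UGA, which elsewhere ends translation, so a full-length protein needs the selenocysteine machinery as well as the mRNA. The 33 bases around that codon are shown because the codon is the feature that these members share and the other 6 lack. They are from GRCm38 with GENCODE M21, plus strand, 5' to 3', with the selenocysteine codon in capitals. The Gpx1 window lies in exon 1 (codon 47, chr9:108339436-108339468), the Gpx3 window in exon 2 (codon 73, chr11:54907241-54907273) and the Gpx4 window in exon 3 of the transcript used (codon 129, chr10:80054722-80054754), all in coding sequence.
Gpx1: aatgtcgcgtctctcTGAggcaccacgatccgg
Gpx3: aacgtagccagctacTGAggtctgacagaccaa
Gpx4: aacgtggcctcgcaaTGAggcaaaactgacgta

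Gpx3 (ENSMUSG00000018339.11, GRCm38 chr11:54902453-54910377, plus strand) was the most variable of the 9 genes, which follows in part from how it was chosen. It was at 7.26 and 2.20 CPM in the Alyref KO morulae and at 2.34, 1.18 and 7.45 CPM in the non-KO morulae of the Alyref cross. In the Gabpb1 cross it was at 31.8, 167 and 34.9 CPM in the morulae labelled KO and at 177 and 265 CPM in the non-KO morulae. All 5 morulae of the Gabpb1 cross were above all 5 of the Alyref cross.

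Among blastocysts, Gpx3 was at 33.0, 2.42 and 25.5 CPM in the Alyref cross, at 16.5, 47.5 and 104 CPM in the Gabpb1 cross and at 6.37, 15.8 and 16.5 CPM in WT embryos. The 3 blastocyst groups overlapped. The lowest and the highest of the 19 embryos, 14 and 3482 counts, differed 224-fold in CPM. The SD of log2(CPM + 1) over the embryos was 2.09, higher than that of 99.5% of the 11425 genes with a mean of 5 CPM or more. These embryos include the non-KO morulae by which Gpx3 was chosen. Its range and rank follow in part from that choice and are a description only. Prdx2 was next, with an SD higher than that of 73.9% of these genes, and the other 7 members lay between 15.3% (Txn1) and 56.9% (Gpx1).

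**Figure D1:**
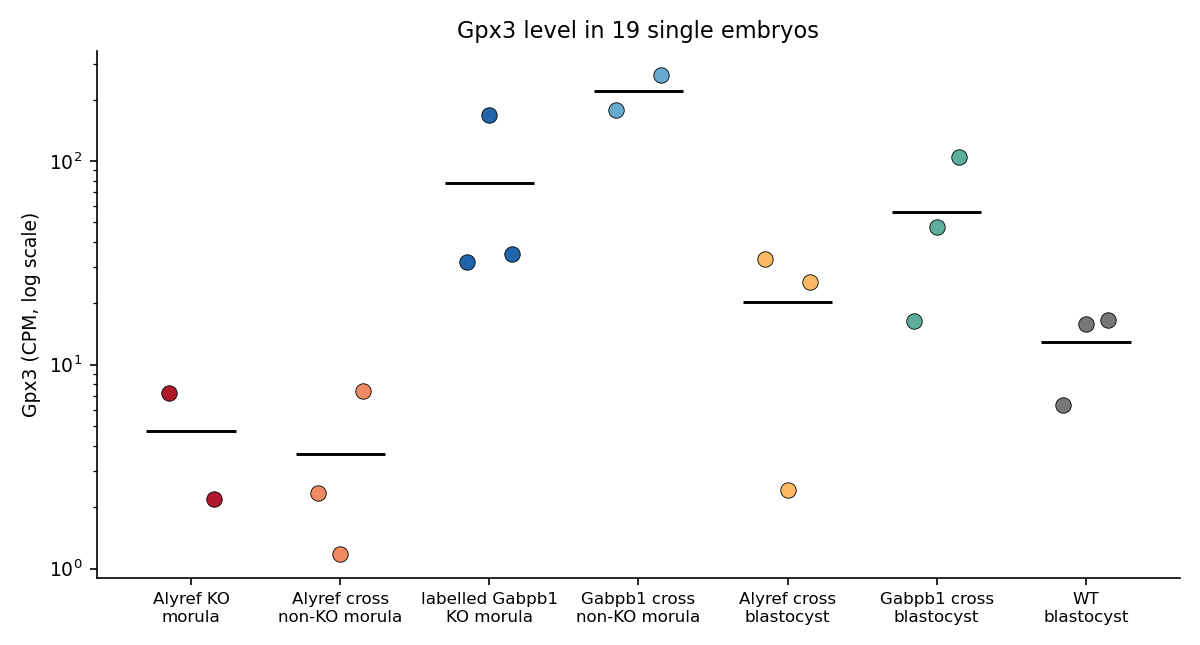
Gpx3 level in each of the 19 embryos by group (CPM on a log axis; points are embryos, lines are group means). The non-KO morulae of the Gabpb1 cross, at 177 and 265 CPM, are the highest embryos, and the morulae of the Alyref cross, at 1.18 to 7.45 CPM, are among the lowest.

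In order of group means, Gpx3 ran from the Gabpb1 cross non-KO morulae with 221 ± 62.2 CPM (SD, n = 2) through the morulae labelled Gabpb1 KO with 78.0 ± 77.4 (n = 3) to the Gabpb1 cross blastocysts with 56.0 ± 44.4 (n = 3). Below these came the Alyref cross blastocysts with 20.3 ± 15.9 CPM (n = 3), the WT blastocysts with 12.9 ± 5.67 (n = 3), the Alyref KO morulae with 4.73 ± 3.58 (n = 2) and non-KO morulae of the Alyref cross with 3.65 ± 3.33 (n = 3). Neighbours in this order overlapped in their embryos except at the top, where the highest morula labelled Gabpb1 KO (167 CPM) lay just under the lower non-KO morula (177 CPM). Per 1000 ERCC counts, a scale that does not depend on the other genes, the non-KO morulae of the Gabpb1 cross had 29.3 and 42.1 Gpx3 counts, and no other embryo had more than 8.06.

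In the comparison that chose the set, Gpx3 was 5.90 higher on the log2 scale in the non-KO morulae of the Gabpb1 cross than in those of the Alyref cross, and the value lay between 5.54 and 6.94 when each embryo was left out in turn. Among the other members in the same embryos, Cat was 0.87 higher, Txn1 0.82, Gpx4 0.61, Prdx1 0.53, Sod2 0.49, Prdx2 0.31 and Sod1 0.22, and Gpx1 was at -0.04. Gpx3, Gpx4 and Txn1 did not overlap between these groups, 3 of 9, where 36.1% of all genes tested did not. No test is given and nothing is read from this count, since the members were chosen from this comparison.

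Alpha-globin transcripts and trophectoderm markers were also high in these libraries, and their part in the Gpx3 result was not tested. Alpha-globin transcripts (Hba-a1 and Hba-a2 summed) were at 97.0 and 33.3 CPM in the non-KO morulae of the Gabpb1 cross and at 223 CPM in the second morula labelled Gabpb1 KO, the 3 embryos with the highest Gpx3, and at 9.0 CPM or less in the other 16. Of the 5 blood markers, both alpha-globin genes made up the whole sum in these 3 embryos, where the other 3 markers, Hbb-bs, Hbb-bt and Ptprc, were at 0. The trophectoderm sum was 3966 and 6160 CPM in the non-KO morulae of the Gabpb1 cross, with all 14 genes counted, against 1144 to 2968 CPM with 13 or 14 in those of the Alyref cross. The summed 11 epiblast markers were lower, 701 to 882 against 1497 to 1593 CPM, and the 8 primitive endoderm markers were at 690 to 768 against 530 to 791 CPM.

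**Figure D2:**
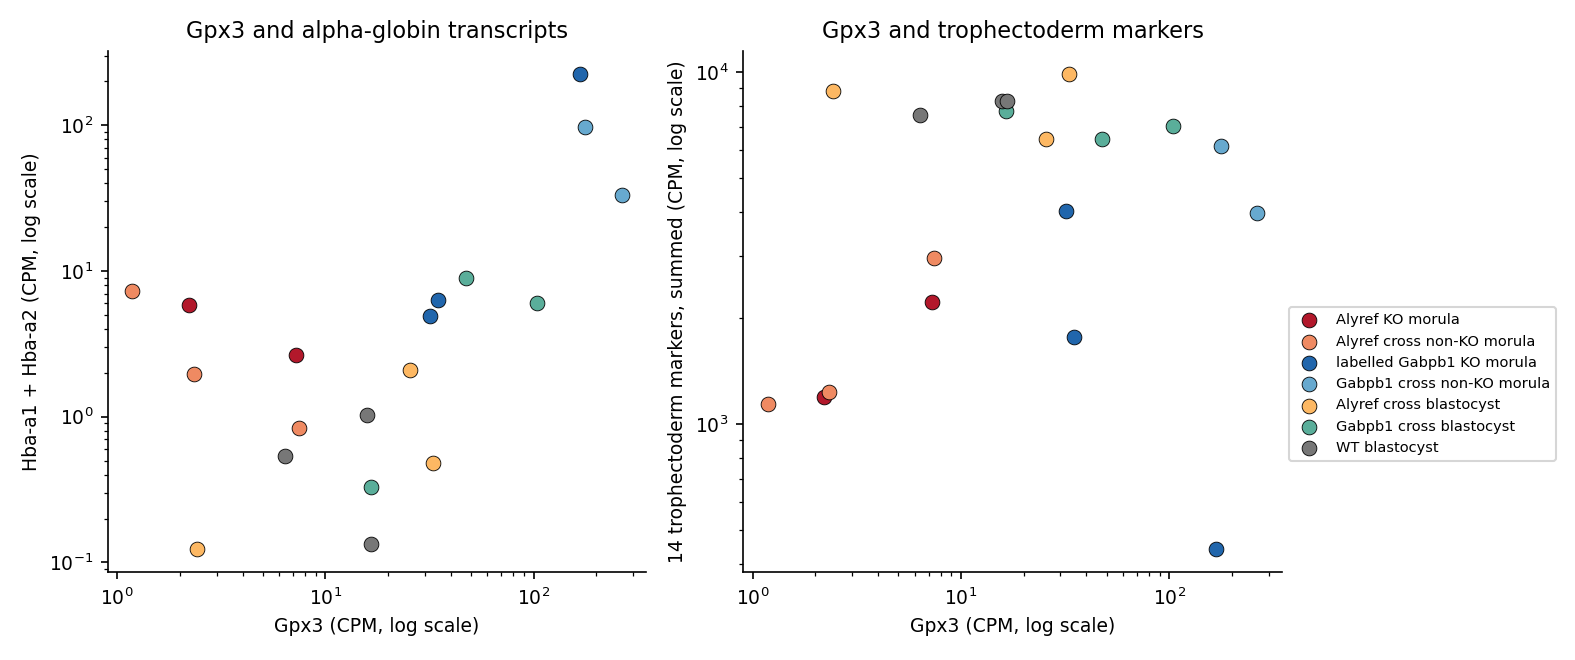
Gpx3 against alpha-globin transcripts (left) and against the sum of 14 trophectoderm markers (right) in the 19 embryos, CPM on log axes, 1 point per embryo coloured by group. The 3 embryos with Gpx3 of 167 CPM or more are those with alpha-globin of 33.3 CPM or more, and 1 of these 3 has the lowest trophectoderm sum, 443 CPM.

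Cumulus, granulosa and oocyte markers were also counted. Of the 16 cumulus and granulosa markers, 3 to 10 had any count in an embryo, with sums of 25.5 to 106 CPM, and the FSH receptor gene Fshr was at 0 in every embryo. The 10 oocyte genes summed to 26.9 to 189 CPM. In the non-KO morulae these sums were 38.3 to 55.7 CPM (cumulus) and 59.6 to 71.1 CPM (oocyte) in the Gabpb1 cross, against 35.1 to 106 and 71.3 to 80.1 CPM in the Alyref cross. Their part in the results was not tested.

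By a rule that took the 5 genes with the highest Pearson correlation of log2(CPM + 1) with Gpx3 over the 19 embryos, among 11424 genes, the patterns most like Gpx3 were Serpine2 (r = 0.94), Pm20d1 (0.91), Gstm6 (0.88), Them5 (0.85) and Ms4a10 (0.84). These values describe the same libraries and have no p-value. Serpine2, an inhibitor of serine proteases, was at 262 CPM on average in the non-KO morulae of the Gabpb1 cross and at 33.3 CPM in those of the Alyref cross. Gstm6, a glutathione S-transferase, was at 20.3 and 1.996 CPM. Ms4a10 was at 58.7 and 0.46 CPM. Of the other members, Prdx1 (r = 0.68), Prdx2 (0.67) and Gpx4 (0.66) were most like Gpx3 and Gpx1 least (-0.03).

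Levels between genes were compared per length, as mean FPKM (CPM divided by exon length in kilobases) in the 7 groups. Txn1 (410 to 724 FPKM), Gpx1 (361 to 757), Prdx1 (358 to 517), Gpx4 (180 to 377) and Sod2 (166 to 322) were the abundant members. Sod1 (78.0 to 129), Prdx2 (30.0 to 128) and Cat (16.6 to 43.0) were lower, and Gpx3 ranged from 2.02 to 122 FPKM. In the non-KO morulae of the Gabpb1 cross Gpx3 thus exceeded Cat, at 43.0 FPKM, and Prdx2, at 64.2 FPKM. Summed over the 9 genes, the groups lay between 1764 and 2556 FPKM.

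**Figure D3:**
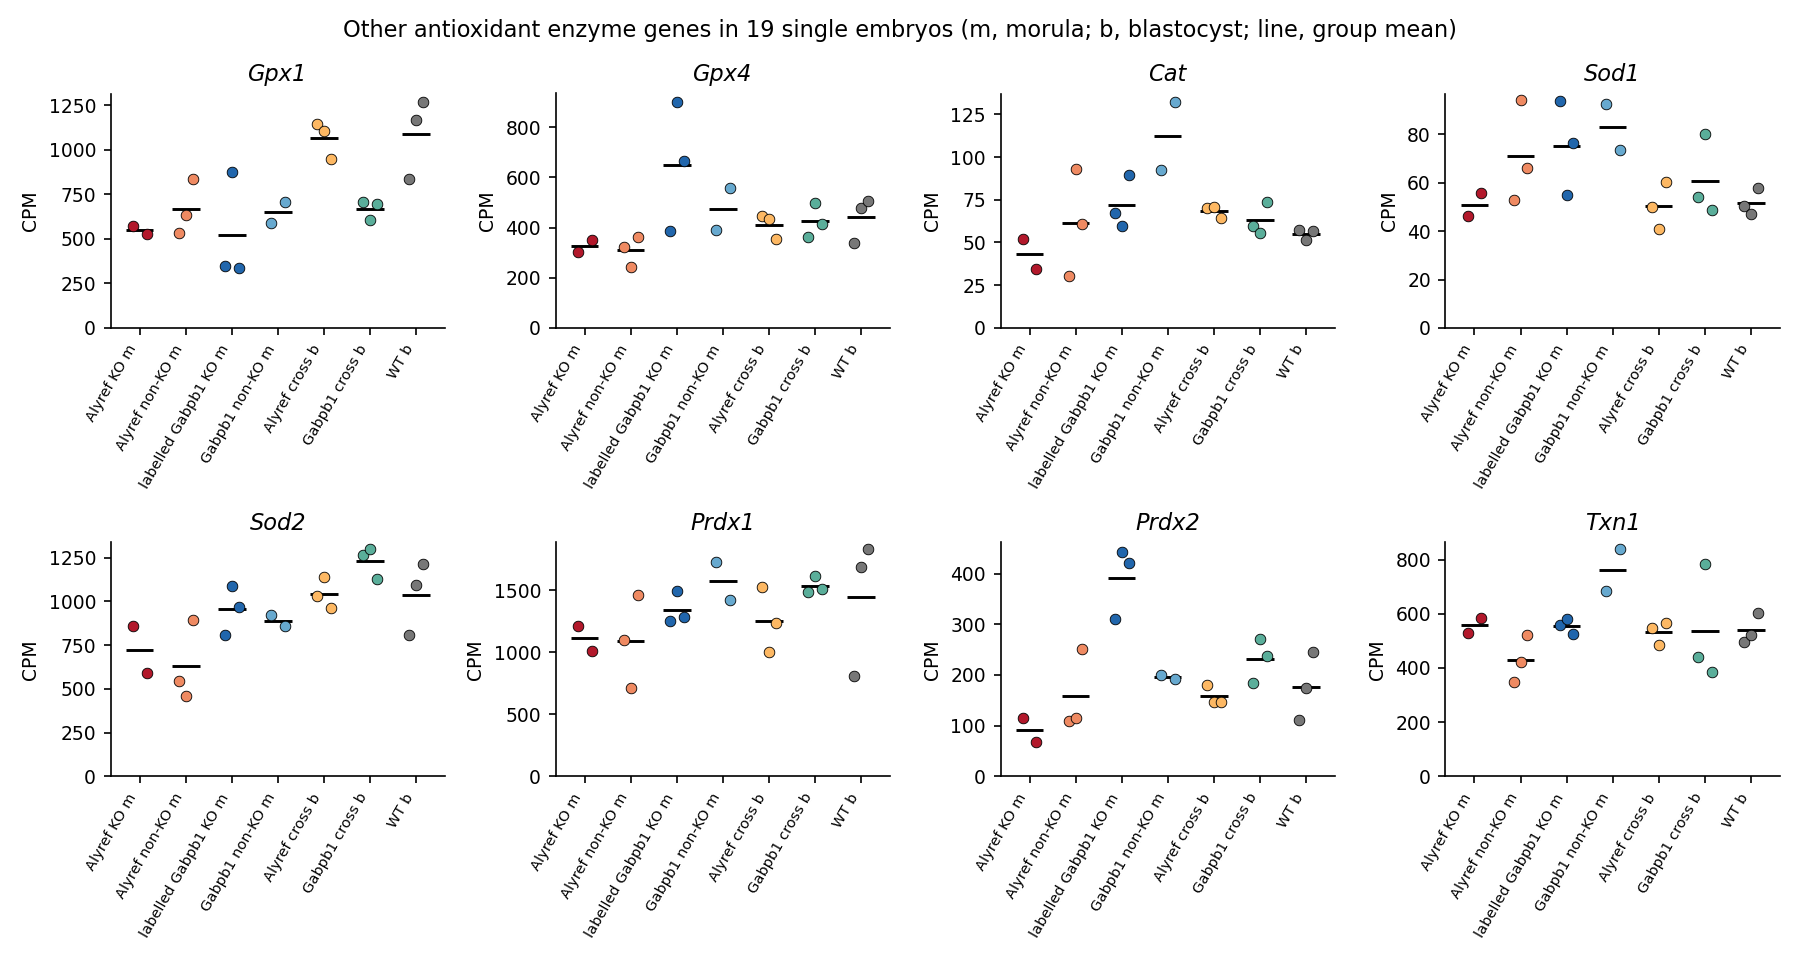
CPM of the other 8 genes in each embryo by group (linear axes from 0; points are embryos, lines are group means; m, morula; b, blastocyst). Prdx2 is highest in the morulae labelled Gabpb1 KO (311 to 444 CPM), and Gpx1 is at 607 to 706 CPM in the Gabpb1 cross blastocysts against 835 to 1270 CPM in the other 6 blastocysts.

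Loss of Alyref was compared within its own cross. No member was called, 0 of 8 tested by edgeR at an adjusted p under 0.05, where 0.228% of all genes were called. None had an unadjusted p under 0.05, where 12.1% of all genes had, and limma and DESeq2 also called 0. Txn1 was at 528 and 586 CPM in the KO morulae and at 348, 422 and 522 CPM in non-KO embryos (0.37 on the log2 scale, SE 0.25, adjusted p 0.610, edgeR). It was the 1 member without overlap, where 24.9% of all genes did not overlap. Prdx2, which passes electrons from thioredoxin to peroxide in the cytosol, was at 115 and 68.0 CPM in the KO morulae against 109, 115 and 250 CPM (-0.79 on the log2 scale, SE 0.38, adjusted p 0.424, edgeR). The median log2 fold change was 0.03 over the 9 members and -0.04 over all genes. Gpx3, untested here, had 0.31, and its sign depended on single embryos, with -0.74 to 1.34 when each was left out.

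Morulae labelled Gabpb1 KO were compared with the non-KO morulae of their cross. Again 0 of 8 members tested were called by edgeR, where 1.65% of all genes were called, and limma and DESeq2 called 0. Prdx2 was at 311, 444 and 420 CPM in the morulae labelled KO and at 199 and 192 CPM in non-KO embryos (0.999 on the log2 scale, SE 0.38, unadjusted p 0.0186, adjusted p 0.180), the 1 member with an unadjusted p under 0.05. Over all genes 18.9% had such a p-value. Txn1 was at 560, 580 and 527 CPM against 683 and 840 CPM (log2 fold change -0.45, SE 0.25, adjusted p 0.345). Cat was at 67.2, 59.8 and 89.4 CPM against 92.3 and 132 CPM (log2 fold change -0.64, SE 0.34, adjusted p 0.323). For these 3 genes and Gpx3 the groups did not overlap, 4 of 9, where 32.2% of all genes did not.

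Gpx3 itself had a log2 fold change of -1.503 in the morulae labelled Gabpb1 KO, as a description. Without the second of these morulae, the one at 167 CPM, the value was -2.74. The median over the 9 members was -0.23, against 0.06 over all genes. Trophectoderm markers moved in the same comparison, with 13 of 14 lower, a median of -1.36 and 0 called by edgeR. Of them 5 had an unadjusted p under 0.05, against 18.9% of all genes, and limma and DESeq2 called 1 each. Epiblast markers went the other way, with 9 of 11 higher, a median of 0.49, 0 called by edgeR and limma and 3 by DESeq2. Primitive endoderm markers had 5 of 8 lower, and 4 of 4 oocyte genes tested were higher, with 0 called by any tool. The part of these markers in the member values was not tested.

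The KO effects of the 2 crosses were then set against each other in the same fit. Of 8 members tested, 0 differed by edgeR, where 0.907% of all genes did. An unadjusted p under 0.05 was seen for 2, and for 16.8% of all genes. For Prdx2 the effect in the Gabpb1 cross was 1.79 higher on the log2 scale (SE 0.54, adjusted p 0.120), and DESeq2 called this 1 gene (adjusted p 0.0363). The Txn1 effects differed by -0.83 (SE 0.36, adjusted p 0.255).

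Prdx2 was the 1 member called when the morulae labelled Gabpb1 KO were compared directly with the Alyref KO morulae. It was at 311, 444 and 420 CPM in the former and at 115 and 68.0 CPM in the latter, so every embryo of the first group exceeded both of the second. On the log2 scale it was 2.10 higher (SE 0.40, adjusted p 0.00964, edgeR), and 4.57% of all genes were called. The call did not survive ERCC scaling (log2 fold change 1.96, adjusted p 0.407), a fit of these 2 groups alone (2.08, adjusted p 0.170) or leaving out the second Alyref KO morula (1.78, adjusted p 0.126). Without the second morula labelled Gabpb1 KO it was 2.005 (adjusted p 0.0233, edgeR). Cell type markers were called in the same comparison: Nanog was lower (-1.36, adjusted p 0.0112), Gdf3 higher (2.98, adjusted p 0.0160) and the oocyte gene Ooep higher (2.68, adjusted p 0.0229, edgeR), with 4 of 4 oocyte genes tested higher. Their part in the member and list values was not tested. Prdx2 shares 177 and 173 of its 3050 exon bases with Rnaseh2a and Junb on the opposite strand, and the strand setting of the counting is not given in the sources used here.

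Gpx3 was tested here, because neither compared group holds an embryo of the comparison that chose the set. The test is not independent of that choice. All embryos were fitted together, so the embryos behind the choice also enter the estimate of spread for Gpx3. The test also sets the Gabpb1 cross against the Alyref cross, as the choice of Gpx3 did. The morulae labelled Gabpb1 KO had 31.8, 167 and 34.9 CPM and the Alyref KO morulae 7.26 and 2.20 CPM, without overlap. The log2 fold change of 4.09 (SE 1.22, unadjusted p 0.00432) had an adjusted p of 0.0720 by edgeR and was not called. DESeq2 (adjusted p 0.00467) and limma on log2(FPKM + 1) (3.28 on that scale, adjusted p 0.0414) called it. Without the second morula labelled Gabpb1 KO, which also had 223 CPM of alpha-globin, the edgeR value was 2.87 (adjusted p 0.161).

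Gpx4 was at 385, 901 and 664 CPM in the morulae labelled Gabpb1 KO against 302 and 351 CPM in the Alyref KO morulae (log2 fold change 0.99, SE 0.31, adjusted p 0.0830, edgeR). DESeq2 called it (adjusted p 0.0323), as did edgeR without the first of the morulae labelled Gabpb1 KO (1.26, adjusted p 0.0182). The other 11 alternatives did not call it; ERCC scaling gave 0.72 (adjusted p 0.796), and leaving out the second of these morulae gave 0.69 (adjusted p 0.205). Reads of Gpx4 are shared with a near-identical pseudogene: Gpx4-ps2 took 29.1% to 30.7% of the summed counts of both in each of the 19 embryos, so the level of Gpx4 is uncertain, and Gpx4-ps2 had the same fold change of 0.99. Together with Cat and Prdx1, these genes made 5 of 9 without overlap, where 33.1% of all genes did not overlap. The median over the members was 0.56, against 0.04 over all genes, and 3 of 9 had an unadjusted p under 0.05, against 20.5% of all genes.

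**Figure D4:**
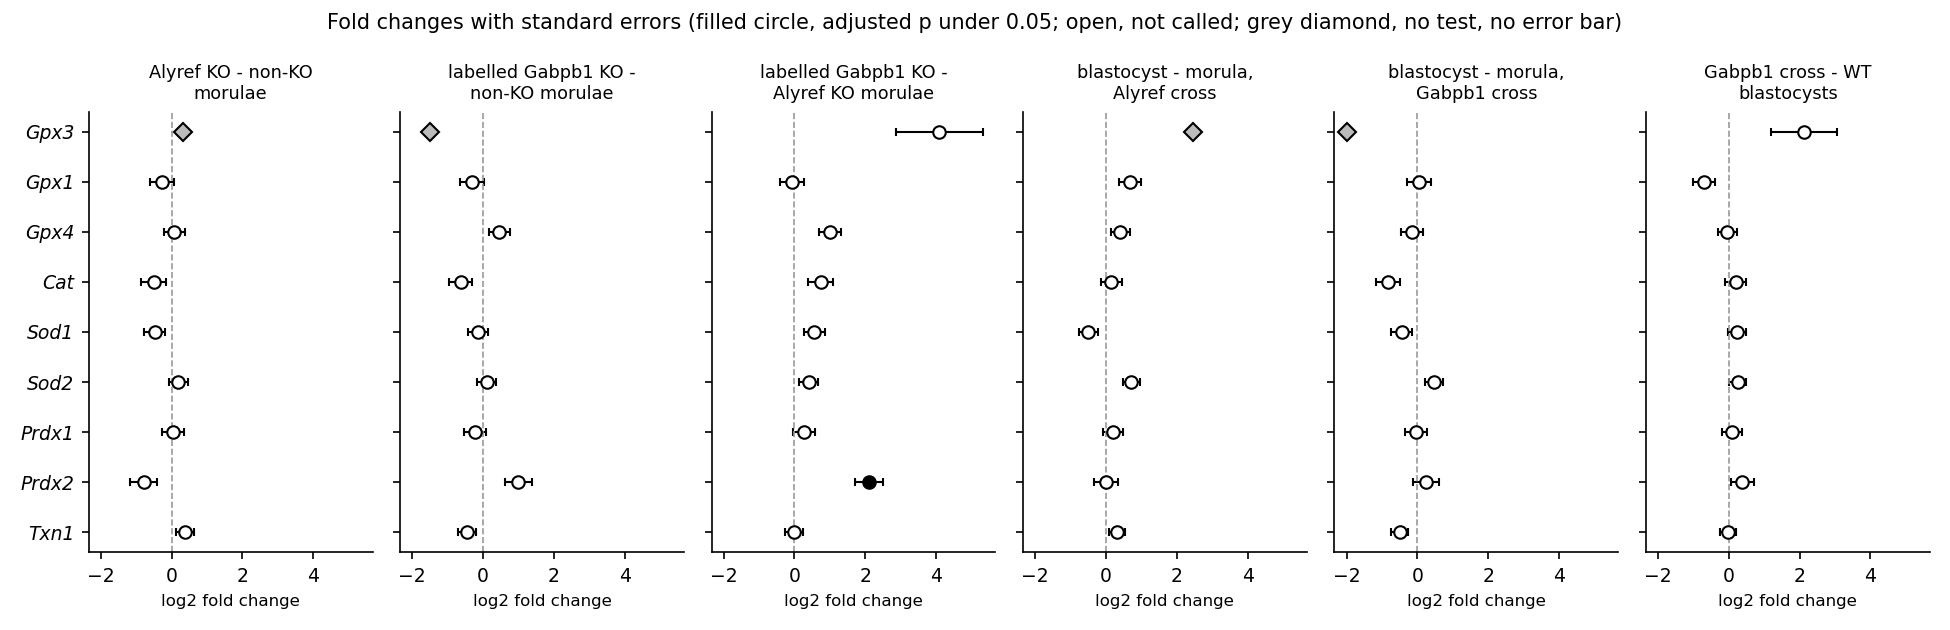
Log2 fold changes of the 9 genes in 6 comparisons (edgeR; bars are standard errors; filled circle, called; open circle, not called; grey diamond, Gpx3 where it was not tested). The single filled point is Prdx2 in the morulae labelled Gabpb1 KO against the Alyref KO morulae, at 2.10.

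The stage comparisons set non-KO blastocysts against non-KO morulae of the same cross and share those morulae with the KO comparisons above. In the Alyref cross 0 of 8 members tested were called by edgeR, where 13% of all genes were called. An unadjusted p under 0.05 was seen for 2, and for 31.1% of all genes. Sod2, the mitochondrial dismutase, was at 1032, 1138 and 964 CPM in blastocysts and at 548, 458 and 896 CPM in morulae. All 3 blastocysts were above all 3 morulae, and the log2 fold change of 0.72 (SE 0.23) had an adjusted p of 0.0521. It was called with RLE scaling (adjusted p 0.0492), limma (0.0257 on log2(FPKM + 1)), DESeq2 (0.0296) and edgeR without the third morula (1.05, adjusted p 0.00361), while ERCC scaling gave 0.27 (adjusted p 0.877).

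Gpx1 was at 1144, 1106 and 950 CPM in these blastocysts and at 532, 632 and 836 CPM in the morulae (log2 fold change 0.68, SE 0.30, adjusted p 0.138, edgeR). Gpx1 and Sod2 were the 2 of 9 without overlap, where 38.9% of all genes did not overlap. Gpx3 was 2.46 higher on the log2 scale in blastocysts, untested, with 1 blastocyst at 2.42 CPM among the morulae. Leaving out each embryo gave 1.91 to 3.50, the highest without the third morula. The median was 0.31 over the members and -0.04 over all genes.

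In the Gabpb1 cross 0 of 8 members were called, as were 0% of all genes by edgeR, and limma and DESeq2 called 0 members. Cat was at 59.5, 55.8 and 73.6 CPM in blastocysts and at 92.3 and 132 CPM in morulae (log2 fold change -0.83, SE 0.34, adjusted p 0.667), the 1 member with an unadjusted p under 0.05. Over all genes 6.72% had such a p-value. Sod2 was at 1268, 1298 and 1130 CPM against 920 and 859 CPM (log2 fold change 0.47, SE 0.26, adjusted p 0.787). With Gpx3, which had -1.98 in blastocysts as a description, these were the 3 of 9 without overlap, where 23.1% of all genes did not overlap. For Gpx3 leaving out each embryo gave -2.79 to -1.54, and ERCC scaling gave -3.10. The median over the members was -0.15, against 0.02 over all genes.

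A test of the difference between the stage effects called 0 of 8 members by edgeR, limma and DESeq2, where edgeR called 0.00543% of all genes. Cat (-0.99, SE 0.46, adjusted p 0.358, edgeR) and Txn1 (-0.81, SE 0.34, adjusted p 0.326) had unadjusted p-values under 0.05, where 13.8% of all genes had. For Gpx3 the stage effects pointed in opposite directions, 2.46 and -1.98, which was not tested. Both are taken against the non-KO morulae by which Gpx3 was chosen, so the opposite signs follow in part from that choice. Scaling to ERCC moved the median of all genes to -0.34 in the Alyref cross and to -0.86 in the Gabpb1 cross. On that scale the non-KO morulae of the Gabpb1 cross had the highest group mean for 8 of the 9 members. Prdx2 was the exception, with 42.4 counts per 1000 ERCC counts in the morulae labelled Gabpb1 KO and 31.8 in the non-KO morulae. ERCC scaling also moved the median of all genes to 0.39 in these non-KO morulae against those of the Alyref cross. The share of all genes highest in this group was not computed, so nothing is read from the count of members.

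Blastocysts were compared in 3 ways: each cross with WT, and the crosses with each other. The first 2 share the WT embryos, and each cross group also enters the third. In each, edgeR called 0 of 9 members and 0% of all genes, and limma and DESeq2 called 0 members. An unadjusted p under 0.05 was seen for 0, 2 and 1 members, and for 2.94%, 6.10% and 3.51% of all genes. Gpx3 was 2.12 higher on the log2 scale in the Gabpb1 cross than in WT (SE 0.93, unadjusted p 0.0372, adjusted p 0.805), with 1 blastocyst of the cross at 16.5 CPM level with the highest WT embryo. Against the Alyref cross blastocysts it was 1.46 higher (SE 0.91, adjusted p 1), and the Alyref cross was 0.66 above WT (SE 0.90, adjusted p 1). Without the third Gabpb1 cross blastocyst, at 104 CPM, the first 2 differences were 1.31 and 0.65. The second was 0.94 without the second Alyref cross blastocyst, and the third lay between 0.10 and 1.18 when each embryo was left out.

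Gpx1 was at 706, 607 and 699 CPM in the Gabpb1 cross blastocysts, below all 3 WT blastocysts (835, 1167 and 1270 CPM) and all 3 of the Alyref cross. The log2 fold changes were -0.70 against WT (SE 0.30, adjusted p 0.801) and -0.67 against the Alyref cross (SE 0.30, adjusted p 1, edgeR), both with an unadjusted p under 0.05. Gpx1 was the 1 member without overlap against WT, where 12.8% of all genes did not overlap, and against the Alyref cross it was joined by Prdx2 (184, 270 and 237 against 181, 146 and 147 CPM), where 13% did not. Between the Alyref cross and WT, Cat alone did not overlap (70.2, 71.0 and 64.2 against 57.0, 51.7 and 56.6 CPM), where 12.2% of all genes did not. Member medians were -0.03, 0.19 and 0.24 in the Alyref cross against WT, the Gabpb1 cross against WT and the Gabpb1 against the Alyref cross, with -0.01, 0.00 and 0.01 over all genes.

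Neither Sod1 nor Prdx1 was called in any of the 8 comparisons between groups that were tested, under edgeR. Cytosolic Sod1 lay between 41.0 and 94.2 CPM in the 19 embryos, and its log2 fold changes in these comparisons ran from -0.50 to 0.56. Prdx1 lay between 714 and 1834 CPM, with fold changes from -0.23 to 0.29. Txn1 counts may hold a small share from the processed pseudogene Txn-ps1, which had 2440 counts over all embryos.

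Promoters were searched for a pair of short motifs on both strands, in RefSeq windows (GRCm38.p6) from 250 bases before to 50 after each start site; all 9 members had a window. TGACNNNGC, the core of the antioxidant response element bound by NRF2, was in 2 of 9 members and in 13.99% of all genes with a window. CCGGAAG, the ETS motif of the kind GABP binds, was in 0 of 9 members and in 9.93% of genes; this says only that these letters are not in the windows. Both matches of the first motif were on the minus strand, first base at -133 in Prdx1 and -56 in Sod1, and the Prdx1 match also holds the letters TGACTCA of an AP-1 motif. They are shown with 10 bases on each side, plus strand, 5' to 3', match in capitals, at chr4:116685456-116685484 and chr16:90220696-90220724, since they are the members' 2 matches. A match is a description, not a site.
Prdx1: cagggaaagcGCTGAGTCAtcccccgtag
Sod1: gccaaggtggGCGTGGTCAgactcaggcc

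Genes around the 9 enzymes were described in 6 lists, 105 genes of which 97 were tested. In the Alyref KO comparison 1 of the 97 was called higher by edgeR and 0 lower, 1.03% where 0.228% of all genes were called. DESeq2 called 4 and limma on log2(FPKM + 1) 2, where they called 2.94% and 0.89% of all genes. Each DESeq2 share, here and below, is of the genes to which DESeq2 gave an adjusted p and not of the 18410. The edgeR call was Slc3a2, the heavy chain of the cystine transporter, at 341 ± 49.8 CPM (SD, n = 2) in the KO morulae and 169 ± 12.7 (n = 3) in non-KO embryos (log2 fold change 1.02, adjusted p 0.0490, edgeR). That call was lost in 9 of 13 alternatives, among them each embryo left out. Among the cell type markers of the same comparison, the epiblast gene Gdf3 was called lower (-3.67, adjusted p 0.0370, edgeR), 9 of 11 epiblast markers had a lower fold change (median -0.52), and 4 of 4 oocyte genes tested did (median -1.44, 0 called by edgeR and limma, 1 by DESeq2 and 1 at an unadjusted p under 0.05). Their part in the list and member values was not tested.

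Against the non-KO morulae of their cross, the morulae labelled Gabpb1 KO had 1 of the 97 genes called by edgeR, lower, 1.03% where 1.65% of all genes were called. Limma called 5 and DESeq2 12, where they called 2.89% and 6.67% of all genes. The edgeR call was Txn2, the mitochondrial thioredoxin, at 108 ± 20.1 CPM (n = 3) and 234 ± 28.5 (n = 2), with -1.11 on the log2 scale (SE 0.24, adjusted p 0.0362, edgeR), and this call was lost in 6 of 13 alternatives. The glutathione S-transferases, which attach glutathione to electrophiles, had 20 of 21 tested members with a lower fold change, a median of -1.20 against 0.06 for all genes, and 0 called by edgeR, with 9 at an unadjusted p under 0.05 (where 18.9% of all genes were), 3 called by limma and 5 by DESeq2. The same non-KO embryos had 21 of 21 higher than the non-KO morulae of the Alyref cross, with a median of 1.90 against -0.03. For example, Gstp1 was at 795 ± 491 CPM (n = 2) there and at 126 ± 58.3 CPM (n = 3) in the Alyref cross, values that are a description and that it shares with its near-identical neighbour Gstp2. The other medians in the morulae labelled KO against non-KO were -0.46 for glutathione and NADPH supply, -0.39 for the thioredoxin and glutaredoxin system, -0.33 for selenoproteins and their synthesis, -0.27 for other peroxidases and dismutases and -0.13 for NRF2 regulation and targets.

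Values of 3 further list genes, picked after they were seen, are given as a description. With edgeR none of the 3 was called in any comparison. Limma called Srxn1 and G6pdx in 1 each, and DESeq2 called Srxn1 and G6pdx in 2 each and Txnrd1 in 1. The limma calls, the Txnrd1 call and 1 of the 2 DESeq2 calls of each other gene came from the comparison that chose the set. Nothing is read from these calls. The remaining DESeq2 calls, of Srxn1 and G6pdx, were in morulae labelled Gabpb1 KO against non-KO, which shares embryos with that comparison. Srxn1, which repairs over-oxidised peroxiredoxins, had 106 ± 79.1 CPM in the Gabpb1 cross non-KO morulae (SD, n = 2) and lay at 10.4 to 25.3 CPM on average in the other 6 groups. Txnrd1, cytosolic thioredoxin reductase, was at 175 ± 68.9 CPM against 44.1 to 77.7 CPM. G6pdx, which supplies NADPH, was at 109 ± 53.0 CPM against 25.9 to 51.8 CPM.

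When the morulae labelled Gabpb1 KO were compared with the Alyref KO morulae, 8 of the 97 list genes were called, 8.25% against 4.57% of all genes, 7 of them higher. Limma called 9 and DESeq2 16, where they called 5.83% and 9.38% of all genes. Higher were the glutaredoxins Glrx3 (0.87, adjusted p 0.0195) and Glrx5 (1.55, adjusted p 0.0250), the glutathione synthesis enzyme Gclc (1.42, adjusted p 0.0347), the transferases Gstz1 (1.48) and Mgst2 (3.54), the selenoprotein Selenof (1.35) and Eefsec, the elongation factor that delivers selenocysteine (1.78, adjusted p 0.0316, edgeR). Lower was Trnau1ap, a partner of the selenocysteine tRNA, at 29.4 ± 3.40 CPM (n = 3) against 64.5 ± 6.37 CPM (n = 2), a log2 fold change of -1.14 (adjusted p 0.0148). The 22 selenoprotein genes tested had a median of 0.84, against 0.04 over all genes. Each of these calls was lost with ERCC scaling and in 3 to 7 further alternatives of 13.

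Between blastocysts and morulae of the Alyref cross, 11 of the 97 were called, 11.3% against 13% of all genes. Limma called 22 and DESeq2 24, where they called 14.1% and 18.3% of all genes. Higher in blastocysts were Gpx7, a peroxidase of the endoplasmic reticulum (1.44, adjusted p 0.0145), Gstz1 (1.59), Gstm2 (3.29), Glrx5 (1.04), the redox-sensitive chaperone Park7 (0.69), Selenoh (1.21) and Pstk, a kinase of selenocysteine synthesis (0.98, adjusted p 0.0432, edgeR). Lower were Maff (-1.49), Sesn2 (-1.11), Selenot (-1.11) and Sephs1 (-0.91). Each of these 11 calls was lost in at least 2 of 14 alternatives, from 2 for Gstz1 to 8 for Pstk, Selenoh and Sephs1 and 9 for Sesn2. Markers were called too: Nanog, Klf2, Dppa4 and Pou5f1 of the epiblast list and the oocyte genes Zp3 and Padi6 were lower. Of the trophectoderm list Krt8, Krt18, Atp1b1 and Fgfr2 were higher and Tfap2c lower. Of the 4 oocyte genes tested 3 had a lower and 1 a higher fold change. The sum of all 10 oocyte genes was higher in these blastocysts, 89.7 to 149 CPM against 71.3 to 80.1 CPM in the morulae. The part of these markers in the list and member values was not tested. In the Gabpb1 cross stage comparison edgeR called 0 of the 97, with 18 at an unadjusted p under 0.05, where 6.72% of all genes were. Limma called 1 and DESeq2 2, where they called 0.054% and 0.33% of all genes. In the 3 blastocyst comparisons all 3 tools called 0, with 2, 4 and 6 at an unadjusted p under 0.05, where 2.94%, 6.10% and 3.51% of all genes were. For the difference between KO effects edgeR called 0, limma 1 and DESeq2 6, where they called 0.907%, 1.47% and 4.96% of all genes. There 24 had an unadjusted p under 0.05 (16.8% of all genes). For the difference between stage effects the same tools called 0, 0 and 5, where they called 0.00543%, 0% and 1.89% of all genes. There 20 had an unadjusted p under 0.05 (13.8% of all genes).

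Gpx2, a further selenium-dependent peroxidase and no member, was picked after its values were seen. It was at 3.80 ± 4.52 CPM (n = 2) in the Alyref KO morulae and at 44.7 ± 19.2 CPM (n = 3) in its non-KO counterparts, a log2 fold change of -3.63 that edgeR (adjusted p 0.182) and limma (0.0901) did not call and DESeq2 did (adjusted p 0.00665). Over all comparisons edgeR and limma called Gpx2 in 0 and DESeq2 in 3. The other DESeq2 calls were in blastocysts against morulae of the Alyref cross (-2.30, adjusted p 0.0258) and in morulae labelled Gabpb1 KO against Alyref KO morulae (2.89, adjusted p 0.0199). In the order given, DESeq2 called 2.94%, 18.3% and 9.38% of all genes in these 3 comparisons. The counts also hold a pseudogene, Gpx2-ps1, so the level of Gpx2 is uncertain. Its mean was 71.4 CPM in the non-KO morulae of the Gabpb1 cross and 9.06 to 31.6 CPM in blastocysts.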

How the data were processed

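Per the submitters' processing notes, reads were handled with Trimmomatic, Trim Galore, cutadapt, STAR and featureCounts on mm10, with no versions. Per the labels' protocols, single-embryo cDNA was amplified over 16 PCR cycles, made into Nextera XT libraries and read as pairs of 50 and 25 bases. The authors deposited 1 table whose name says FPKM but whose values are raw counts (whole numbers, 53379 gene rows and 92 ERCC rows); counts of amplified cDNA are not independent molecules. Coordinates are GRCm38.

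The CPM and FPKM values given were computed from the counts with TMM-scaled library sizes without ERCC rows and the deposited exon length. Genes with FPKM of 1 or more in at least 2 embryos were tested. The FPKM used for this filter and for limma took library sizes without TMM scaling. One mean per group was fitted to the 19 embryos with edgeR 4.0.16 (R 4.3.3, quasi-likelihood F test); p-values were adjusted by Benjamini-Hochberg over 18410 genes, a gene is called at an adjusted p under 0.05, and SE is the size of the change over the root of the F value. P-values without another tool named are edgeR's. Alternatives were RLE and ERCC scaling, no filter, a replicate block, the compared groups alone, limma 3.58.1 with pseudocounts 1 and 0.1, DESeq2 1.42.0 and leaving out each embryo. DESeq2 was fitted to all 39262 genes with any count. It gave an adjusted p to a number of genes that differed by comparison, 16373 in the Alyref KO comparison and 20926 between stages of the Alyref cross. The method was run on simulated counts with changes set only in the Alyref KO morulae. The simulation held no difference between crosses, so it does not bear on comparisons between them. No pair of libraries of the same group agreed within sampling noise, and pairs across groups were not compared in this way.

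The members and lists were chosen with earlier results of these data known. Named list genes are those called, up to 4 per direction in each list and comparison; Srxn1, Txnrd1, G6pdx and Gpx2 were named outside this rule, after their values were seen. Lists: other peroxidases and dismutases, thioredoxin and glutaredoxin system, glutathione and NADPH supply, glutathione S-transferases, NRF2 regulation and targets, selenoproteins and their synthesis, and markers of trophectoderm, epiblast, primitive endoderm, cumulus, oocyte and blood cells.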

Additional observations from a re-analysis of the deposited data

How the results depend on the processing

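Alternatives were run for 43 single-gene results and 11 summary results, not for every tested fold change, and no direction reversed among the tested single-gene results. In the Gabpb1 KO against Alyref KO comparison, where 1 member was called, ERCC scaling and the compared groups alone gave 0, limma on log2(FPKM + 1) gave 2 and DESeq2 gave 3, and leaving out each embryo gave 0 to 2. This limma setting and DESeq2 called 5.83% and 9.38% of all genes there. For blastocysts against morulae of the Alyref cross, where 0 members were called, RLE scaling, limma with either pseudocount (1 or 0.1) and DESeq2 each gave 1, and leaving out each embryo gave 0 to 1. Limma on log2(FPKM + 1) and DESeq2 called 14.1% and 18.3% of all genes in that comparison. For the difference between KO effects DESeq2 gave 1 in place of 0, where it called 4.96% of all genes. The cause was not tested. The other counts of members called stayed at 0 in every alternative run.

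Replicate numbers were the same across groups, but same-numbered embryos did not deviate together (correlations of -0.20 to 0.17 over 22 pairs), so the numbers do not pair the samples. With a replicate block Prdx2 had 1.94 (adjusted p 0.0163, edgeR) in the morulae labelled Gabpb1 KO against the Alyref KO morulae, and no count of members called changed. Genes called over the whole table went from 841 to 594 there and from 42 to 8 in the Alyref KO comparison.

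The counts of genes called, from which the background shares come, varied over the alternatives: 0 to 482 for 42 in the Alyref KO comparison, 0 to 1294 for 303 in the Gabpb1 KO comparison, 0 to 1750 for 841 between the KO groups and 24 to 4560 for 2402 between stages of the Alyref cross. Groups of 2 or 3 embryos limit the precision of every fold change, and low counts limit Gpx3 in the Alyref cross morulae, which had as few as 14 counts.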
